A study of Homo sapiens with 6 samples.

Results

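Nucleolar ribosome biogenesis genes were compared between K562 cells expressing EP400 with and without its TRRAP-binding region. The group was chosen by gene symbol and held 52 genes of the 60609 in the count files, and each of the 52 symbols matched 1 gene. K562 is an established human leukaemia line. In all 6 libraries endogenous EP400, the scaffold and ATPase subunit of TIP60, carried a homozygous degradation tag, and the cells had been given 500 nM dTAGV-1, which triggers loss of the tagged protein, for 24 h. In the 3 WT libraries an exogenous WT EP400 was expressed from the AAVS1 safe harbour site, and in the 3 Delta-TRRAP libraries the exogenous EP400 lacked the SANT and HD domains that bind TRRAP. Each complemented line was 1 clone, so clone and genotype cannot be told apart, and the replicates measure the spread between cultures of 1 clone.

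Ribosomes are built in the nucleolus, where RNA polymerase I makes a long precursor rRNA. Small nucleolar ribonucleoproteins (snoRNPs) modify and fold this precursor, the small subunit processome and a set of large subunit factors cut it and assemble it with ribosomal proteins, and helicases, GTPases and chaperones drive the steps. In proliferating cells these genes are expressed highly, and MYC, a transcription factor for which TRRAP is a known coactivator, is a textbook regulator of many of them.

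The libraries held 35076835 to 42616061 counts in genes. EP400 itself, whose count adds the tagged locus and the transgene, measured 4924 to 5425 normalized counts across the WT libraries and 4350.1 to 6694 across the others. The mitochondrial genome supplied 3.18% to 3.71% of WT counts and 5.07% to 6.24% of Delta-TRRAP counts. Delta-TRRAP replicates 2 and 3 differed by transcript length: across 6799 well expressed genes, the log2 ratio of replicate 2 to replicate 3 rose with exon length with a Spearman rho of 0.55, and across the 52 genes with a rho of 0.546. Genes differ in length and share these 2 libraries, so both are descriptions. Of the erythroid genes that mark K562 cells, GATA1 was read 6490 to 6735 times per WT library and 5646 to 6014 times per Delta-TRRAP library, while the lymphoid genes MS4A1 and CD8A had no counts, although the labels call the cells lymphoblasts. The 10 K562 markers summed to 1217 to 1263 CPM (counts scaled to a common depth) in WT and 1396 to 1447 CPM in Delta-TRRAP. The 9 lymphoid markers summed to 398 to 414 CPM in WT and 113 to 125 CPM in Delta-TRRAP, nearly all of it PTPRC. Of 8 fibroblast markers the summed level was 0.871 to 1.43 CPM in WT and 24.5 to 25.9 CPM in Delta-TRRAP, COL1A2 made up most of it, 1 gene (LUM) was at 0 throughout, and the part of these shifts in the results was not tested.

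The ribosome biogenesis genes were lower in Delta-TRRAP as a group. Of the 52 genes, 44 (84.6%) fell past an adjusted p of 0.01 (quasi-likelihood test of edgeR, Benjamini-Hochberg adjustment over all 19114 genes tested), 1 rose and 7 did not pass. Over all genes tested, 28.9% fell and 29.6% rose by the same rule. Most of the 52 genes are highly expressed. Among the 6803 genes whose normalized count averaged 1000 or more, 48.4% fell and 20.7% rose, and 48 of the 52 genes, including all 44 that fell, are at that level. Most falls were under 2-fold. They are given as log2 fold changes (Delta-TRRAP over WT), with ± for their standard error (SE). The median of the 52 genes was -0.52, with a range of -1.13 to 0.20, beside a median of 0.0057 over all genes tested and -0.17 over those at 1000 or more. Only FBL passed a fold change of 2 as well as the adjusted p, and 21 genes fell by 1.5-fold or more, as did 14.2% of all genes tested and 17% of those at 1000 or more. Of all genes tested 6.34% fell and 16.2% rose past the adjusted p and 2-fold, and of those at 1000 or more 4.23% fell and 2.23% rose. None of the 52 genes rose by 2-fold. In bulk RNA, fewer expressing cells and less RNA per cell cannot be told apart, and a count gives a share of the sequenced RNA, not an amount per cell.

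**Figure D1:**
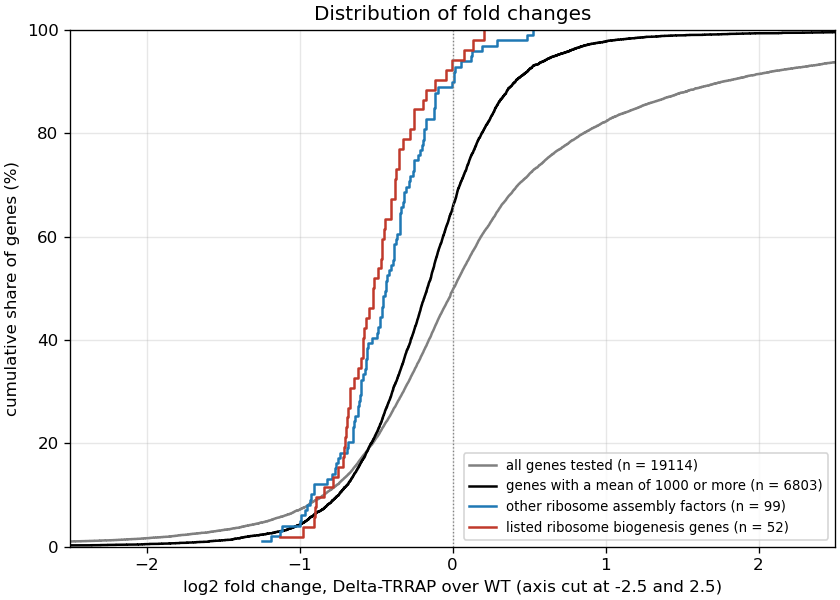
Cumulative share of genes (vertical axis, %) by log2 fold change of Delta-TRRAP over WT (horizontal axis) for all genes tested, genes with a mean normalized count of 1000 or more, 99 other ribosome assembly factors and the 52 ribosome biogenesis genes. The curve of the 52 genes crosses its middle at -0.52 and that of the other factors at -0.43, left of the highly expressed genes (-0.17) and of all genes (0.0057).

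The direction of the group held under each scaling of the libraries tried, while the size varied. The values above use TMM factors, which centre the libraries on genes that change little. Scaling by library size alone raised the median of all genes to 0.17 and that of the 52 genes to -0.36. The 52 genes then lay 0.53 below all genes on the log2 scale, beside 0.52 with TMM. A change of scaling shifts all genes by nearly the same amount, so this gap hardly can change and is not a check. With library size alone, 40 of the 52 genes fell, where 21.2% of all genes did, and 2 rose, where 37.7% did. NPM1, NOP56, DDX10 and BYSL were the falls lost, with log2 fold changes of -0.12, -0.097, -0.098 and -0.033. A share of raw counts uses no TMM factors, but it amounts to scaling by library size alone and is not a separate check. The 52 genes together took 1.34%, 1.37% and 1.34% of all gene counts in the WT libraries and 1.09%, 1.08% and 1.11% in the Delta-TRRAP libraries, so the groups did not overlap. NPM1, NCL and DDX21 alone made up 44.4% to 45.0% of this sum per WT library and 47.2% to 48.4% per Delta-TRRAP library, and the other 49 genes took 0.737% to 0.752% of a WT library and 0.567% to 0.571% of a Delta-TRRAP library.

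**Figure D2:**
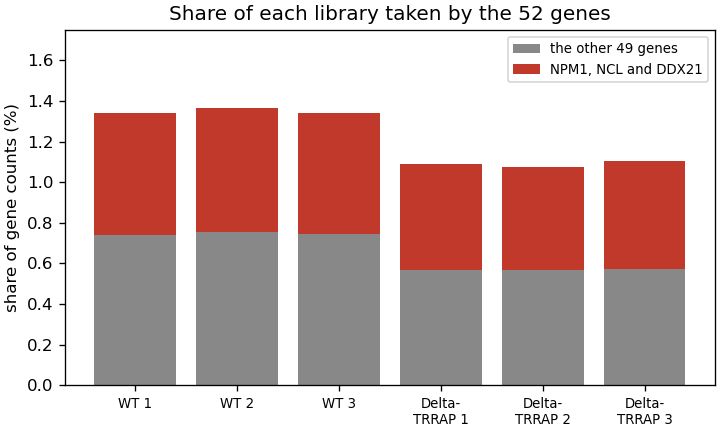
Share of all gene counts (vertical axis, %) taken by the 52 ribosome biogenesis genes in each of the 6 libraries, split into NPM1, NCL and DDX21 (red) and the other 49 genes (grey). The total is 1.34% to 1.37% in the 3 WT libraries and 1.08% to 1.11% in the 3 Delta-TRRAP libraries.

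Library by library, 46 of the 52 genes had all 3 Delta-TRRAP values below all 3 WT values, 2 had them all above, and 4 overlapped. Over all genes tested, 35.1% lay wholly below and 36% wholly above, and over genes at 1000 or more 54.2% and 24.7%. By role, all 6 abundant nucleolar proteins, all 4 box C/D and all 4 box H/ACA snoRNP proteins, 17 of 22 small subunit factors and 13 of 16 large subunit factors fell at an adjusted p of 0.01. That rule called 28.9% of all genes tested and 48.4% of those at 1000 or more lower. The medians of these role groups were -0.50, -0.65, -0.54, -0.45 and -0.63 on the log2 scale.

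**Figure D3:**
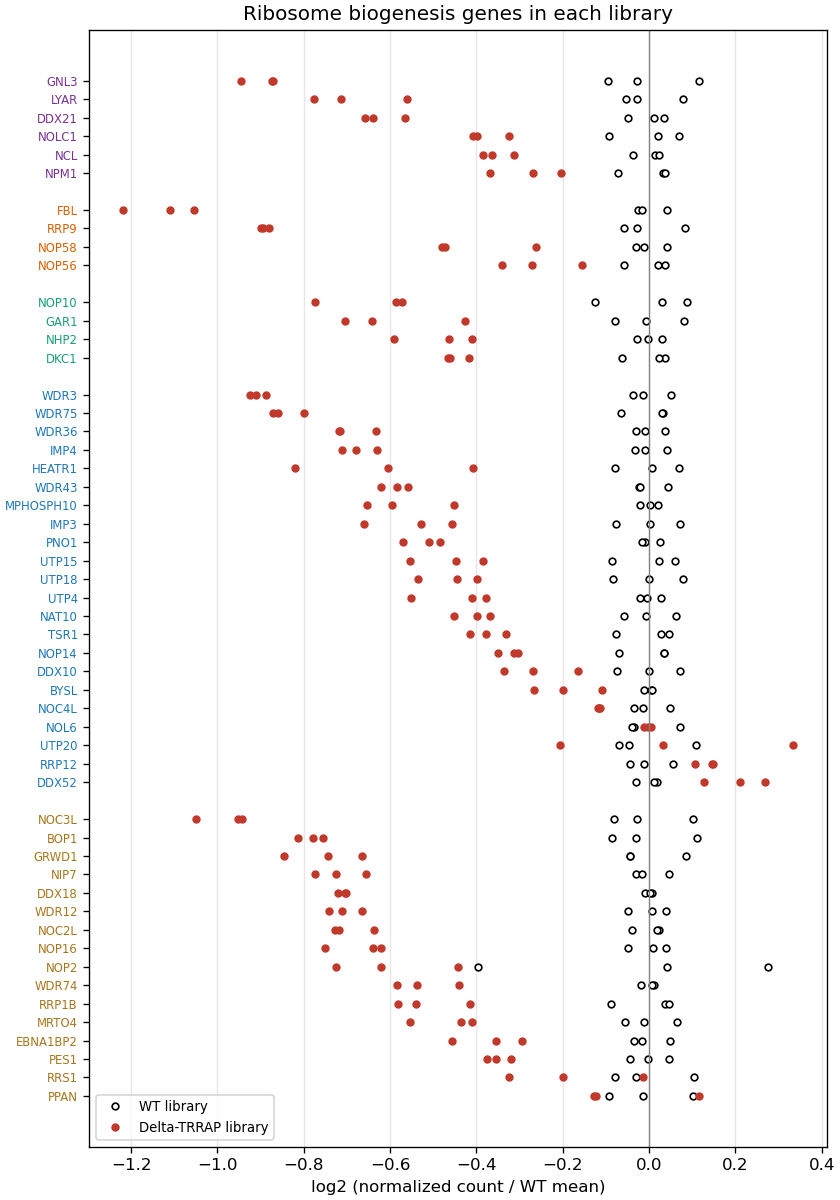
Each row is 1 gene and each point 1 library, placed by the log2 of its normalized count over the WT mean (horizontal axis), with WT libraries as open and Delta-TRRAP libraries as red circles. Rows are grouped by role, from abundant nucleolar proteins through box C/D and box H/ACA snoRNP proteins to small and large subunit factors. Red points lie left of all open points in 46 of the 52 rows.

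Because MYC binds the E-box CACGTG, promoters of the group were searched for these letters in RefSeq sequence (build GRCh38.p14) from 250 bases before to 50 bases after each start. Promoters were found for 43 of the 52 genes, by symbol, and some genes have more than 1. CACGTG, which reads the same on both strands, was in a promoter of 22 of the 43 genes (51.2%), against 12.2% of 11298 tested genes and 8.77% of all 27305 genes with a promoter. Among tested genes at 1000 or more the share was 13.5%, and among 87 other ribosome assembly genes it was 25.3%. CCGGAAG, a core that ETS factors bind, counted on both strands, was in 41.9% of the 43 genes, 21.2% of tested genes, 26.7% of those at 1000 or more and 37.9% of the other ribosome assembly genes. The motif of NRF1 was in 6.98% of the 43 genes and 2.61% of tested genes. Each motif was counted by itself, whether or not it overlapped another.

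Genes with and without an E-box were set side by side. Of the 22 genes with an E-box 19 fell, with a median log2 fold change of -0.55, and of the 21 genes without one 19 fell, with a median of -0.52. Over all tested genes with a promoter, 41.9% of those with an E-box and 34.9% of those without fell. Below are the stretches from 120 bases before to 30 bases after the start of 6 genes, with CACGTG and CCGGAAG (or its reverse complement) in capitals. FBL and NOC3L had the 2 largest falls and have an E-box in this stretch. WDR3 and WDR75, which fell nearly as far, have none there or elsewhere in the 300 bases searched. GNL3 (-0.90) and RRP9 (-0.89), not printed here, fell further than WDR75 (-0.84) and have one beside a start. UTP20 and NOL6 have one beside the start and did not pass the test. NOP2, which did not pass either, also has one, while NOC4L and PPAN did not pass and have none. The log2 fold change of NOP2 was -0.58, and the counts of NOP2 and PPAN come from only part of each gene, as described further on.
FBL (chr19:39846350-39846499, strand minus): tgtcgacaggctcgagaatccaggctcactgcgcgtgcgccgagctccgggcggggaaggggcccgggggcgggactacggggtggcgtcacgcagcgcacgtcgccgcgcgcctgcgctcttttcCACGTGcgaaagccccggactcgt
NOC3L (chr10:94362910-94363059, strand minus): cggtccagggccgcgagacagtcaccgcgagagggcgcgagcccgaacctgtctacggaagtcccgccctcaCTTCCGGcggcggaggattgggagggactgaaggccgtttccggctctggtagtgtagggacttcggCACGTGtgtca
WDR3 (chr1:117929619-117929768, strand +): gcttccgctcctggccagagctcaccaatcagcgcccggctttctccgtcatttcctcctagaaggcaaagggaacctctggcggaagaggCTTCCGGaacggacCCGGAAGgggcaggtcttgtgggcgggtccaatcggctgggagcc
WDR75 (chr2:189441354-189441503, strand +): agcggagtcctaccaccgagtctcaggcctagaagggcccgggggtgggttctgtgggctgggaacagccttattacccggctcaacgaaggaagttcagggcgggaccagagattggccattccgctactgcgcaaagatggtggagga
UTP20 (chr12:101279985-101280134, strand +): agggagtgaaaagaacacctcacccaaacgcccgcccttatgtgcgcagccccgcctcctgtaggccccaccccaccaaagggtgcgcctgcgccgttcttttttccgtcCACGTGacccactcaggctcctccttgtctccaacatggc
NOL6 (chr9:33473895-33474044, strand minus): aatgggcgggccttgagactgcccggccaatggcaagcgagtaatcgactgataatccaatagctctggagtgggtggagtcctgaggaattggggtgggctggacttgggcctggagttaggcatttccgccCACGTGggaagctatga
The first base of the E-box lies at position 7 in FBL, 20 in NOC3L and 14 in NOL6, counting the start as 1, and 10 bases before the start in UTP20 (position -10). A match of letters is a description, not a site of binding in these cells.

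The abundant nucleolar proteins included 4 of the 5 most highly expressed genes of the group per length, and they fell unevenly. NPM1 (ENSG00000181163.13, chr5:171387116-171411810), nucleophosmin, a chaperone that forms the granular nucleolus and escorts ribosomal proteins, had normalized counts of 134708, 135044 and 125239.6 in WT and 109194, 102030.1 and 114358 in Delta-TRRAP. The groups did not overlap, and the log2 fold change was -0.28 ± 0.06 (edgeR adjusted p 0.000448). NPM1 has many processed pseudogenes, and since reads with several matches were discarded its counts are uncertain. NCL (ENSG00000115053.16, chr2:231453531-231483641), nucleolin, which binds nascent rRNA and organises its chromatin, had 56665, 58670.0 and 59117 in WT and 44539, 45209.5 and 46810.2 in Delta-TRRAP. All Delta-TRRAP values again lay below WT, by -0.35 ± 0.05 on the log2 scale (edgeR adjusted p 1.15e-05). GNL3 (ENSG00000163938.17, chr3:52681156-52694497), the GTPase nucleostemin, had 15425, 13959.5 and 13315 in WT and 7766, 7387 and 7775 in Delta-TRRAP. It was the steepest fall of the 6, at -0.90 ± 0.06 (edgeR adjusted p 2.29e-09). LYAR (ENSG00000145220.14, chr4:4267701-4290154), a nucleolar protein of growing cells, had 5826, 6382 and 5923 in WT and 3527, 3684 and 4099 in Delta-TRRAP, a log2 fold change of -0.68 ± 0.06, and as in GNL3 the groups did not overlap. Falls also passed for the RNA helicase DDX21 (-0.62), which links Pol I transcription to rRNA processing, and for the snoRNP chaperone NOLC1 (-0.38).

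Per kilobase of annotated exon and scaled for depth (reads per kilobase and library size, RPKM), NPM1 led the WT libraries at 407, followed by NCL at 168, FBL at 167, DDX21 at 162 and GNL3 at 113. NCL and FBL did not differ beyond their spread in WT, whereas in Delta-TRRAP their levels were 131 and 76.6. Exon lengths add up all annotated isoforms, which lowers the level of a gene with long rare isoforms. They also include the exon bases that NOP2 and PPAN share with other genes, where reads are left out, which lowers the levels of these 2 genes.

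**Figure D4:**
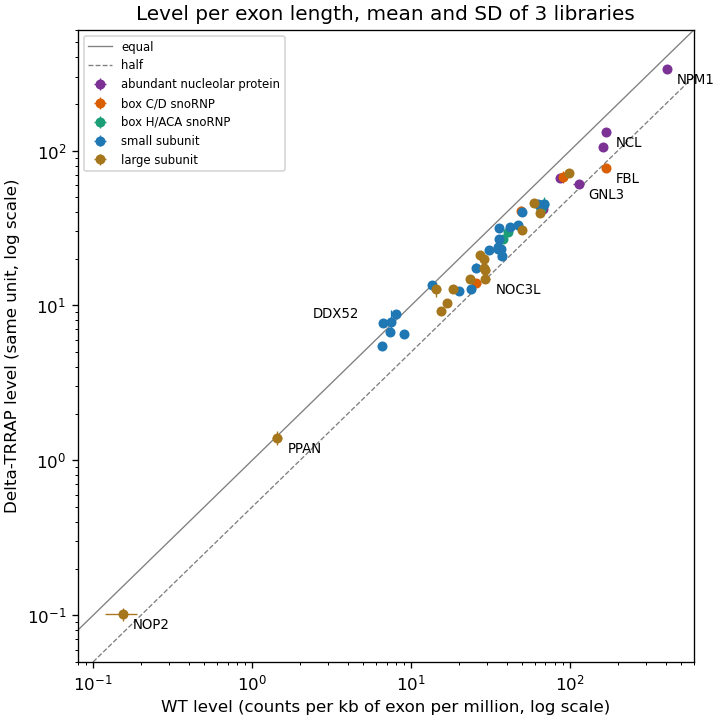
Level of the 52 genes in WT (horizontal axis) against Delta-TRRAP (vertical axis), both in RPKM on log scales, with means and SDs of 3 libraries, coloured by role. Most genes lie between the solid line of equal levels and the dashed line of a 2-fold fall, and FBL, at 167 against 76.6, lies below the dashed line.

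Box C/D snoRNPs place 2′-O-methyl groups on rRNA, and their proteins fell by unequal amounts. FBL (ENSG00000105202.9, chr19:39834458-39846379), fibrillarin, the methyltransferase itself, had normalized counts of 13672, 14319 and 13755 in WT and 6444, 5977 and 6698 in Delta-TRRAP. Its mean fell from 13915 ± 352 to 6373 ± 365 (SD, n = 3 each), which is -1.13 ± 0.05 as a log2 fold change (edgeR adjusted p 7.15e-11), the largest fall of the 52 genes. With scaling by library size alone the value was -0.97, just short of a fold change of 2. NOP56 (ENSG00000101361.17, chr20:2652593-2658393), which with NOP58 forms the scaffold that holds fibrillarin on the guide RNA, had 9031, 9648 and 9545 in WT and 7789, 7425 and 8452 in Delta-TRRAP. Its log2 fold change was -0.25 ± 0.06 (edgeR adjusted p 0.000875), the smallest of the 4, and -0.097 (adjusted p 0.131) under library size scaling. Annotated small RNA genes overlap 9.54% of its exon bases. NOP58 changed by -0.40 ± 0.06 and RRP9, the protein specific to the U3 snoRNP, by -0.89 ± 0.06.

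The ratio of FBL to NOP56 counts within a library, which needs no scaling, was 1.51, 1.48 and 1.44 in WT and 0.827, 0.805 and 0.792 in Delta-TRRAP. The ratio of FBL to NOP58 was 1.16, 1.26 and 1.23 in WT and 0.787, 0.727 and 0.704 in Delta-TRRAP. Neither ratio overlapped between groups, and the log2 differences were -0.87 and -0.72. FBL was taken for its fold change, the lowest of the group, so these ratios are descriptions with no test.

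Box H/ACA snoRNPs convert uridine to pseudouridine, and their 4 core proteins fell within a narrow range of log2 fold changes, -0.64 to -0.45. DKC1 (ENSG00000130826.18, chrX:154762742-154777689), dyskerin, the pseudouridine synthase and a telomerase component, had normalized counts of 13990.4, 14980.0 and 14848 in WT and 10608, 10572 and 10934 in Delta-TRRAP. Its log2 fold change was -0.45 ± 0.05 (edgeR adjusted p 9.51e-07), the smallest fall of the 4. NOP10 (ENSG00000182117.5, chr15:34339159-34343180), a short protein of the core, had 4288, 4114 and 3694 in WT and 2685, 2357 and 2712 in Delta-TRRAP, a log2 fold change of -0.64 ± 0.07 (edgeR adjusted p 4.44e-07), the largest. GAR1 changed by -0.59 ± 0.07 and NHP2 by -0.49 ± 0.06. The ratio of NOP10 to DKC1 counts was 0.307, 0.275 and 0.249 in WT and 0.253, 0.223 and 0.248 in Delta-TRRAP. These genes are the extremes of the 4, and their ratio still overlapped between groups.

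The small subunit factors held both deep falls and the only positive log2 fold changes of the 52 genes. HEATR1 (ENSG00000119285.11, chr1:236549005-236604516), a large protein of the UTP-A complex that also acts in Pol I transcription, had 11754, 12475 and 13032 in WT and 8171, 9355 and 7036 in Delta-TRRAP. No Delta-TRRAP value reached WT, and the log2 fold change was -0.60 ± 0.08 (edgeR adjusted p 7.56e-06). It ranged from -0.71 to -0.50 over the fits that each left out 1 library. WDR75 (ENSG00000115368.10, chr2:189441446-189475552), of the same complex, had 7522, 7508 and 7025 in WT and 4022, 4051 and 4223 in Delta-TRRAP, a log2 fold change of -0.84 ± 0.05, again with no overlap. The other UTP-A genes of the list also fell, UTP4 at -0.44, UTP15 at -0.46 and WDR43 at -0.59 on the log2 scale. WDR3 (ENSG00000065183.16, chr1:117929720-117966543), of the UTP-B complex, had 9293, 9439.8 and 9869 in WT and 5022, 5155 and 5073 in Delta-TRRAP. It fell most of the 22, at -0.91 ± 0.05 (edgeR adjusted p 2.54e-10), while its UTP-B partners WDR36 (-0.69) and UTP18 (-0.46) fell as well. All 3 proteins of the MPP10 complex fell, MPHOSPH10 at -0.56, IMP3 at -0.55 and IMP4 at -0.67.

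Factors of later small subunit steps fell too, PNO1 at -0.52, TSR1 at -0.37 and BYSL at -0.19. So did NAT10 (-0.41), which acetylates 18S rRNA, the processome protein NOP14 (-0.32) and the helicase DDX10 (-0.25). The edgeR adjusted p-values were 0.00444 for BYSL and 0.000976 for DDX10, the highest among the 44 falls. BYSL no longer passed without WT replicate 1, WT replicate 2 or Delta-TRRAP replicate 2 (adjusted p 0.0103 to 0.0164), nor with DESeq2 (0.0102) or a replicate block (0.0106), and DDX10 no longer passed without Delta-TRRAP replicate 1 (0.011).

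DDX52 (ENSG00000278053.5, chr17:37609739-37643446), an RNA helicase of early 18S processing, went the other way, with 2419.7, 2502 and 2491 in WT and 2860.4, 2976 and 2700.5 in Delta-TRRAP. All Delta-TRRAP values lay above WT and the log2 fold change was 0.20 ± 0.05 (edgeR adjusted p 0.00249). This call was lost when WT replicate 1, 2 or 3 or Delta-TRRAP replicate 1 was left out, with adjusted p-values of 0.0128 to 0.0245 and log2 fold changes of 0.17 to 0.20. RRP12 (ENSG00000052749.13, chr10:97356358-97426076), which acts in export of precursor subunits, had 2626, 2567 and 2749 in WT and 2929, 2935 and 2849 in Delta-TRRAP. Its groups did not overlap, but the log2 fold change of 0.13 ± 0.05 had an edgeR adjusted p of 0.0243 and passed 0.01 only with scaling by library size (0.29, adjusted p 9.13e-05). Within a library, the WDR3 count was 3.84, 3.77 and 3.96 times that of DDX52 in WT and 1.76, 1.73 and 1.88 times in Delta-TRRAP. The pair was picked as the lowest and highest of the 22 fold changes, which fixes the direction of this ratio.

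UTP20 (ENSG00000120800.5, chr12:101280105-101386618), a very long processome protein, had 2819, 2771 and 3138 in WT and 2975, 3666 and 2523 in Delta-TRRAP. The Delta-TRRAP values spread around all WT values, and the fitted difference of 0.071 ± 0.10 had a 95% interval of -0.14 to 0.28. Like HEATR1 it was highest in replicate 2 and lowest in replicate 3 of Delta-TRRAP, the pair of libraries that differed by transcript length. NOL6 (ENSG00000165271.17, chr9:33461353-33473930), of the UTP-C complex, had 3073, 3064 and 3309 in WT and 3142, 3157 and 3121 in Delta-TRRAP, a log2 fold change of -0.004 ± 0.05 with an interval of -0.11 to 0.10. A change of 1.5-fold lies outside both intervals. NOC4L (ENSG00000184967.7, chr12:132144457-132152473), the partner of NOP14, had 561, 570.0 and 595 in WT and 529.8, 532 and 531 in Delta-TRRAP, which do not overlap, yet its -0.12 ± 0.06 did not pass (edgeR adjusted p 0.115).

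The large subunit factors had the second lowest median of the role groups. NOC3L (ENSG00000173145.11, chr10:94333226-94362959), which works with NOC2L in the nucleolar steps of the precursor, had 5469, 4993 and 4818 in WT and 2459.6, 2650.2 and 2633 in Delta-TRRAP. The groups lay far apart, with a log2 fold change of -0.98 ± 0.06 (edgeR adjusted p 7.16e-10), and it passed a fold change of 2 without WT replicate 2 (-1.004), WT replicate 3 (-1.03) or Delta-TRRAP replicate 2 (-1.001). NOC2L fell too, at -0.69. BOP1 (ENSG00000261236.8, chr8:144262045-144291438) forms the PeBoW complex with PES1 and WDR12 and is needed for 28S and 5.8S processing. It had 4712, 4114 and 4274 in WT and 2585, 2485 and 2545 in Delta-TRRAP, a log2 fold change of -0.78 ± 0.06 (edgeR adjusted p 7.34e-09), and the groups did not overlap. Its partner WDR12 changed by -0.71 ± 0.05 and PES1 by -0.35 ± 0.05, so PES1 had the smallest change of the 3.

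Further falls in the log2 fold change were -0.75 for GRWD1, a chaperone of ribosomal protein L3, -0.72 for NIP7, -0.71 for the helicase DDX18 and -0.67 for NOP16. WDR74 changed by -0.52, RRP1B by -0.51, MRTO4, a factor of stalk assembly, by -0.47 and EBNA1BP2 by -0.37. The edgeR adjusted p-values of these 8 genes ran from 2.44e-09 to 1.92e-05.

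RRS1, PPAN and NOP2 did not pass. RRS1 (ENSG00000179041.4, chr8:66429014-66430733), which brings the 5S particle to the large subunit, had 914, 1037 and 944 in WT and 839.7, 771 and 956 in Delta-TRRAP, where Delta-TRRAP replicate 3 lay within the WT values. Another annotated gene shares 11.3% of its exon bases. Its log2 fold change was -0.18 ± 0.08 (edgeR adjusted p 0.0533), and without Delta-TRRAP replicate 3 it was -0.26 with an adjusted p of 0.00308. PPAN (ENSG00000130810.20, chr19:10106362-10112012), an RNA-binding factor of large subunit precursors, had 152, 174 and 160.1 in WT and 149, 148 and 175 in Delta-TRRAP, which overlapped, with a difference of -0.045 ± 0.11 and an interval of -0.28 to 0.19. NOP2 (ENSG00000111641.11, chr12:6556863-6568691), a methyltransferase of 28S rRNA, had 33.8, 21.2 and 28.7 in WT and 20.5, 18.1 and 16.9 in Delta-TRRAP. NOP2 did not overlap between groups, but its log2 fold change was -0.58 ± 0.26 (edgeR adjusted p 0.0557). In the GENCODE annotation used here, 49.2% of the exon bases of PPAN and 54.4% of those of NOP2 are shared with another gene on the same strand, PPAN-P2RY11 or P2RY11 for PPAN and AC006064.6 for NOP2. Reads that overlap 2 genes are left out by the counting mode, and PPAN-P2RY11 and AC006064.6 had 0 counts in every library, so the values of PPAN and NOP2 come from the rest of each gene.

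To see how far the genes moved with their chromosomal surroundings, each was set beside the 20 nearest tested genes outside the group. Across the 52 genes, the neighbours' median and the gene's own log2 fold change had a Spearman rho of 0.32, a description with no test. The 52 genes lay below their own neighbours in 47 cases, with a median difference of -0.53. Set beside their neighbours in the same way, 50.1% of all genes tested and 66.4% of those at 1000 or more lay below them, with a median difference of -0.18 for the latter. For 9 genes the neighbours' median was 0.3 or more away from that of all genes. It was raised for 4, WDR43 (0.58), NOL6 (0.69), HEATR1 (0.46) and PES1 (0.31). It was lowered for 5, NOP16 (-0.58), DDX10 (-0.37), GRWD1 (-0.36), GAR1 (-0.35) and NHP2 (-0.35). WDR43, HEATR1 and PES1 thus fell where their neighbours were higher, while NOP16 and DDX10 differed from their neighbours by -0.086 and 0.11. Without the 9 genes, 36 of 43 fell and the median was -0.51. FBL, on a part of chromosome 19 with a neighbour median of -0.23, differed from it by -0.89.

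**Figure D5:**
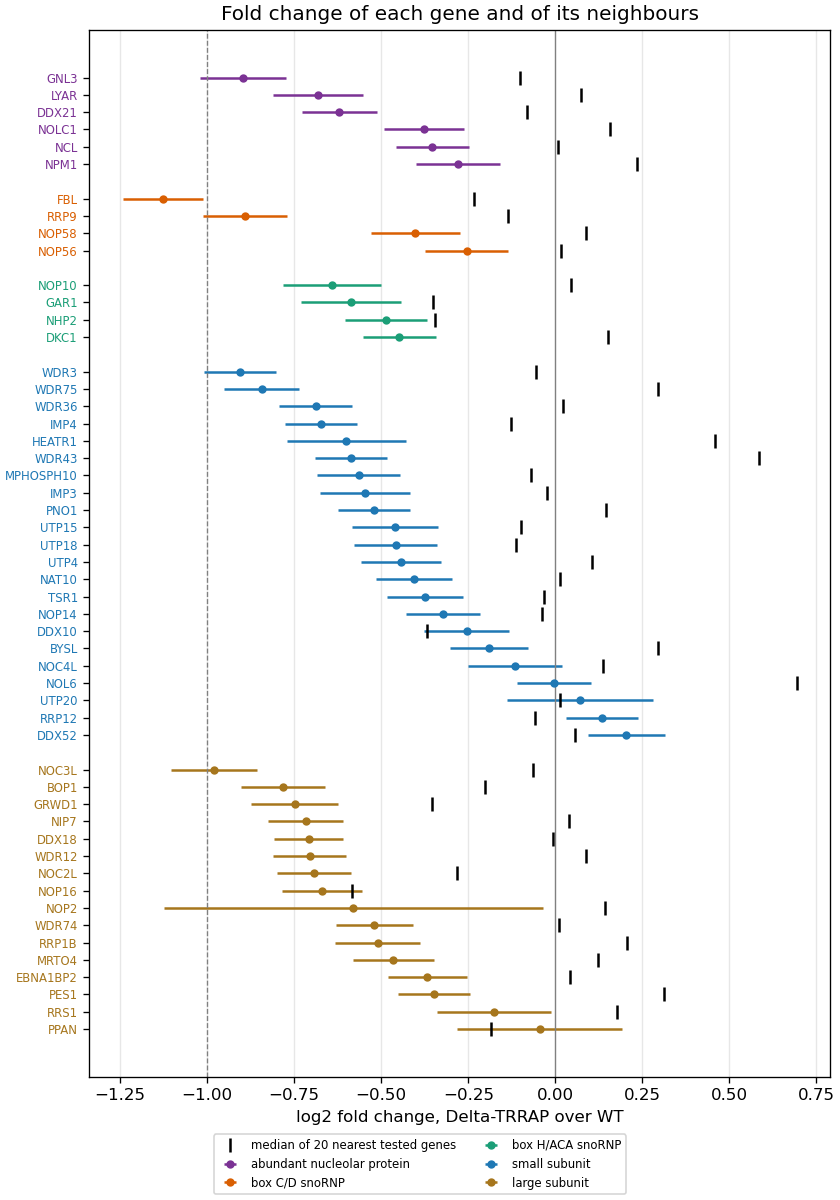
Log2 fold change of each of the 52 genes (points, coloured by role, with 95% intervals of the edgeR fit from 3 against 3 libraries) and the median of its 20 nearest tested neighbours (black ticks). The solid line marks no change and the dashed line a 2-fold fall. Points lie left of their tick in 47 of 52 rows.

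Other genes of ribosome assembly, listed from general knowledge but with earlier results of these data known, were mostly lower as well. Of 99 such genes, all tested, 80 fell at an adjusted p of 0.01, 3 rose and 16 did not pass, with a median log2 fold change of -0.43. For this and the counts below, the shares over all genes tested were 28.9% lower and 29.6% higher. Over genes at 1000 or more they were 48.4% lower and 20.7% higher, with a median of -0.17. Among 32 further small subunit factors 25 fell and 2 rose. DCAF13, a processome protein, went from 11046 ± 996 to 5061 ± 146 normalized counts (SD, n = 3 each), a log2 fold change of -1.13 ± 0.06 (SE). RCL1, of the same assembly, rose from 3331 ± 107 to 4788 ± 83.4 normalized counts (SD, n = 3 each), a log2 fold change of 0.52 ± 0.05 (SE). Among 46 further large subunit factors 38 fell and none rose, while 8 did not pass. RSL24D1, which is exchanged for a ribosomal protein late in assembly, went from 32849.6 ± 2894 to 13843 ± 842 normalized counts (SD, n = 3 each), a log2 fold change of -1.25 ± 0.07 (SE). NOL9, a polynucleotide kinase of 28S processing, had the smallest fall at -0.18. All 7 snoRNP assembly factors fell, from ZNHIT3 at -0.77 to SHQ1, the chaperone of dyskerin, at -0.17. Of 14 exosome genes, which trim rRNA ends, 10 fell and 1 rose, with EXOSC5 lowest at -1.19 and EXOSC6 the one that rose at 0.48. The edgeR adjusted p-values of these 8 genes were at most 0.0085.

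MYC itself did not pass the test. It had 8843 ± 247 normalized counts in WT and 8939 ± 135 in Delta-TRRAP (SD, n = 3 each). Its log2 fold change of 0.016 ± 0.05 (SE) had a 95% interval of -0.086 to 0.12 and became 0.17 (edgeR adjusted p 0.00477) when scaled by library size. Of 11 genes of the MYC network 10 were tested, of which 5 fell and 1 rose. At the same adjusted p, 28.9% of all genes tested fell and 29.6% rose. Of those at 1000 or more, 48.4% fell and 20.7% rose. MYCL was lowest at -1.31 ± 0.07 (SE), and MXD4, a repressor that competes for MAX, rose by 0.72 ± 0.08 (SE). MXD1, of the same family as MXD4, went the other way at -0.94 ± 0.05 (SE). The remaining falls were MAX at -0.37, MGA at -0.37 and MLX at -0.18.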

How the data were processed

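Poly(A) RNA of 6 K562 libraries, 3 per group by sample title and called biological replicates by the authors, was sequenced. The authors deposited raw counts per gene: unique alignments to hg38 (STAR), then counted per GENCODE gene by HTSeq 2.0.2 (reverse strand, union mode). No lines for unassigned reads are in the files. The 2 other deposited tables, of size-factor normalized values and of the authors' comparison (mean, log2 fold change, standard error, statistic, p-values), were not used. Replicates differed by 4.93 to 15.5 times the chi-square of counting alone, more than the same library sequenced again would give. This value cannot tell separate cultures from separate preparations of 1 culture. Counts were tested with edgeR 4.0.16 (R 4.3.3), TMM factors and its quasi-likelihood test, comparing the 2 groups with no covariate. Of 34998 genes with a count, the 19114 averaging 5 or more normalized counts were tested. The adjusted p (Benjamini-Hochberg, 0.01) and the fold change of 2 follow the thresholds of the study. Normalized counts are counts divided by each library's TMM-scaled size, set to the geometric mean size of the 6. Intervals are 95% and come from the fit. Positions, exon lengths and neighbours are from GENCODE release 44 on GRCh38, the same assembly as hg38, and 19041 tested genes matched by ID. The release differs from the one counted on. The fit was tested on simulated data. The genes, roles and lists were chosen with earlier results of these data known. Values in each library are given for 6 set genes (NCL, NPM1, FBL, DKC1, BOP1, HEATR1), for the lowest and highest 2 per role (1 in roles of 4) and for any gene past both thresholds, and the genes that did not pass, the ratios and the promoters shown were chosen after values were seen. Other normalizations, filters, DESeq2 1.42.0, a replicate block and leaving out libraries were tried.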

Additional observations from a re-analysis of the deposited data

How the results depend on the processing

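The number of ribosome biogenesis genes lower at an adjusted p of 0.01 was 44 and stayed at 40 to 44 under the other scalings, filters, DESeq2 and a threshold of 0.05, and at 43 to 45 without any one library. In 40 of the 52 genes the fall passed in all 12 alternatives run on single genes. With scaling by library size alone the median log2 fold change of the 52 genes was -0.36, the number higher was 2 and the number lower by 2-fold was 0. At an adjusted p of 0.05 the number higher was 2, and at a fold change of 1.5 the number lower was 21, since both rules are looser. Without one library the number higher was 0 to 1 and the number lower by 2-fold 1 to 2, NOC3L being the gene added. The median was -0.53 to -0.49 and the other assembly factors lower numbered 75 to 81 without one library. With scaling by library size alone these factors lower numbered 65, against 80 with TMM.

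With the replicate number as a block, 43 of the 52 genes were lower, 1 was higher, 1 fell by 2-fold, the median was -0.52 and 77 other assembly factors were lower. Of the single genes, BYSL alone lost its call. Same-numbered libraries did not deviate together (their deviations from the group means correlated at -0.192 to 0.0874), which does not meet the rule for pairing. Low counts limit NOP2 most, at 16.9 to 33.8 normalized counts, where 54.4% of the exon bases are shared with another gene. All values are limited by 3 libraries of 1 clone per group.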
